A study of Mus musculus with 12 samples.

Results

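The comparison described here is the difference between the injury responses of 2 genotypes of mouse heart, and it uses all 12 of the 12 RNA sequencing libraries of the series. For each gene it takes the log2 change from sham surgery to myocardial infarction (MI) in Cre-positive hearts and subtracts the same change in Cre-negative hearts. A value above 0, called higher below, is a change in Cre-positive hearts that lies further towards a rise, and a value below 0, called lower, one that lies further towards a fall. The libraries form 4 groups with n = 3 each, namely Cre-negative sham, Cre-negative MI, Cre-positive sham and Cre-positive MI. All mice, controls included, carried floxed Yap alleles, were 6 to 10 weeks old, ate a diet with tamoxifen citrate from the time of surgery and gave left ventricles at day 4. MI was produced by permanent ligation of the left anterior descending artery. Cre-positive mice had 1 copy of the tamoxifen-inducible recombinase MerCreMer under the endogenous periostin (Postn) promoter, and their Cre-negative siblings had wildtype Postn.

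This design limits what the groups model. The tissue was whole left ventricle, while recombination is directed to cells that use the Postn promoter, so counts of a gene mix cells with and without it. The labels describe no group that has the recombinase without floxed alleles. Genotype here therefore stands for the recombinase, the changed Postn locus and the intended loss of Yap together. It also goes in part with sex, since Y-linked reads were more frequent among Cre-negative hearts, as given below. Replicates carry only a number, and p-values set each difference against the spread between libraries of the same group.

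YAP, the product of Yap1, is a transcriptional coactivator that binds TEAD factors at DNA, and the kinases of the Hippo pathway hold it in the cytoplasm. Periostin is a matrix protein that fibroblasts secrete once they are activated, and after infarction these cells divide, contract and lay down the collagen of the scar. In the days after ligation, muscle genes of energy supply and contraction usually fall, while genes of matrix, inflammation and cell division rise.

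Total expected counts (estimated reads per gene, summed over a library) were 10257675 to 15176286, and 13678 of 17471 genes held enough reads to be tested. The ventricular muscle genes Myh6, Myl2, Tnni3 and Actc1 were read in every library at 2116 CPM (counts scaled to library size) or more. The atrial genes Myl7 and Sln reached at most 38.9 and 14.2 CPM, both in Cre-positive sham replicate 2. Cre-positive sham replicate 2 stood apart, with 34060 CPM of the slow myosin gene Myh7 where every Cre-negative sham heart had 377 to 2938 CPM. It also had 14340 CPM of Myh6 and 5431 CPM of Actc1. Cre-negative sham hearts had 39840 to 47320 CPM of Myh6 and 10780 to 15190 CPM of Actc1. Y-linked reads, summed over 4 genes, reached 10 CPM in 5 of 6 Cre-negative hearts (3 of 3 after MI, 2 of 3 after sham surgery) and in 1 of 6 Cre-positive hearts (1 of 3 after MI, 0 of 3 after sham surgery). Values without Cre-positive sham replicate 2 are given beside many of the gene lists and some of the genes that it moved. A value given alone may have moved too. With a term for the Y-linked reads in the fit, 0 genes were called higher and 0 lower, and 518 and 478 had an unadjusted p under 0.05. The fit without it also called 0, and the term varied only within Cre-negative sham and Cre-positive MI hearts. These counts therefore cannot tell genotype and sex apart.

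No gene's injury response differed between the genotypes at an adjusted p under 0.05 in edgeR's quasi-likelihood test, with 0 of 13678 genes called higher (0.0% of those tested) and 0 called lower (0.0%). The smallest adjusted p was 0.0777, shared by the wound matrix genes Cthrc1 and Tnc, the only genes under 0.1. At an unadjusted p under 0.05 there were 1116 genes (8.16%), of which 583 were higher (4.26%) and 533 lower (3.9%). Leaving out Cre-positive sham replicate 2 gave 1747 such genes, 956 higher and 791 lower, and the adjusted test again called 0 in each direction. DESeq2's Wald test, run on the same genes as an alternative, called 21 higher (0.268% of the 7839 genes to which it gave an adjusted p) and 13 lower (0.166%). Of these 34 genes, 17 are among the 20 that edgeR's p-values name below, and all 34 had an unadjusted p under 0.05 in edgeR. None of the genes named in what follows was called by edgeR in this comparison, and their intervals are given for that reason.

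The precision of the comparison differed widely between genes. The median standard error was 0.23 on the log2 scale, against 3 libraries per group. For 9456 genes (69.1% of those tested), the 95% interval of the difference lay within 2-fold in either direction. Injury itself moved many genes in both genotypes. In Cre-negative hearts 4090 genes rose (29.9%) and 3334 fell (24.4%), and in Cre-positive hearts 3514 rose (25.7%) and 2665 fell (19.5%). The same direction was called in both genotypes for 5416 genes and opposite directions for 2. Pcbp1, which encodes an RNA-binding protein, was singled out from these after its values were seen. It rose by 0.23 in Cre-negative hearts (adjusted p = 0.0492) and fell by 0.29 in Cre-positive hearts (adjusted p = 0.0224), and the difference of -0.52 ± 0.13 (SE) was not called (adjusted p = 0.497). Across genes, which are not independent replicates, the responses correlated with Pearson's r = 0.891, and their standard deviations were 1.17 in Cre-negative and 1.16 in Cre-positive hearts.

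**Figure D1:**
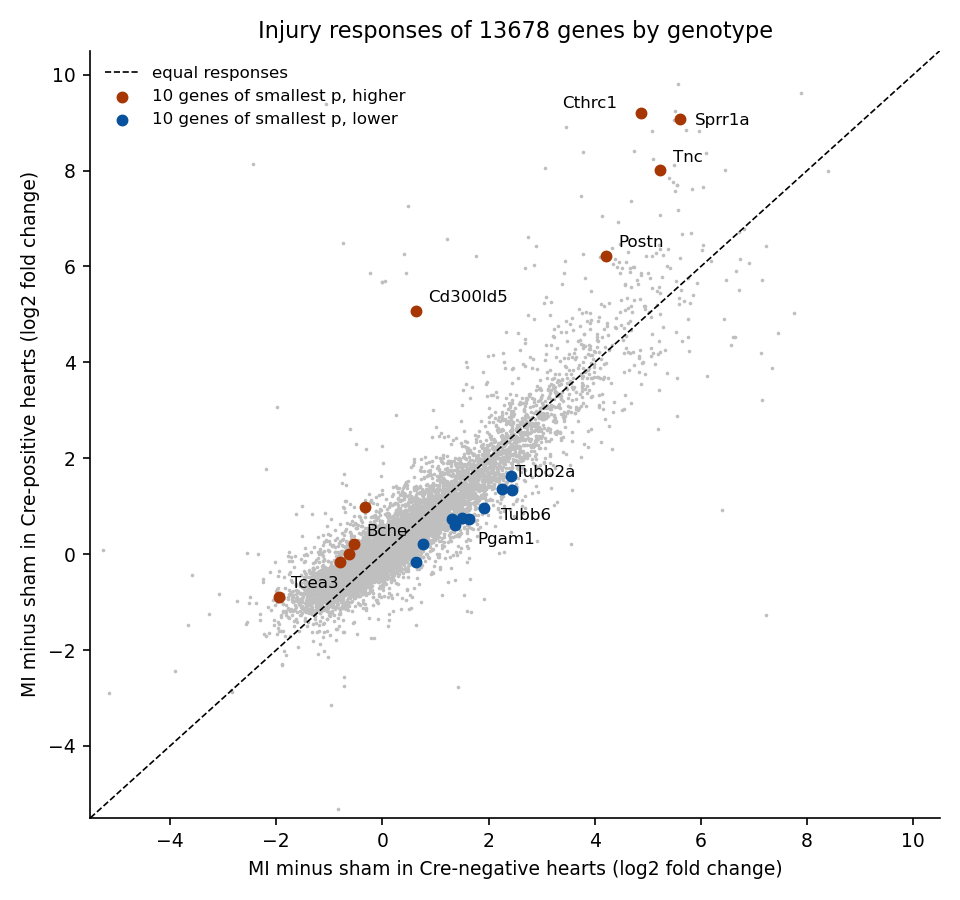
Log2 change from sham surgery to MI in Cre-negative hearts (x axis) against that in Cre-positive hearts (y axis) for 13678 genes (grey points), with the 10 higher and 10 lower genes of smallest p in colour and equal responses as a dashed line. Most genes lie along the line, Cthrc1, Sprr1a, Tnc and Postn lie above it among the genes that rose most, and the lower genes lie just below it at moderate rises.

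The 1116 genes with an unadjusted p under 0.05 can be sorted by what injury did to them in each genotype, a description that uses the same libraries as the difference itself. Of the 583 higher genes, 221 fell in both genotypes, 205 fell in Cre-negative hearts and were not called in Cre-positive hearts, 46 rose in both, 55 rose in Cre-positive hearts alone by the test and 55 were called in neither. Of the 533 lower genes, 250 rose in both genotypes, 180 rose in Cre-negative hearts and were not called in Cre-positive hearts, 6 fell in both, 46 fell in Cre-positive hearts alone by the test and 50 were called in neither. The remaining 2 were called in opposite directions.

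Yap1 itself, the floxed gene (Entrez 22601, mm10 chromosome 9, 7931999 to 8004638), fell after injury in both genotypes. Its levels in replicates 1 to 3 were 116, 115 and 114 CPM after sham surgery and 84.6, 96.4 and 94.0 CPM after MI in hearts without Cre, against 121, 102 and 107 CPM and then 93.9, 92.9 and 91.1 CPM in hearts with it. The sham libraries of each genotype lay above its MI libraries, and the genotypes overlapped after MI. The responses differed by 0.08 ± 0.12 (SE, adjusted p = 0.887), with a 95% interval of -0.19 to 0.35. Gene-level counts cannot separate transcripts with the floxed exon from those without it.

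The 3 smallest p-values among the higher genes belonged to Cthrc1, Tnc and Sprr1a, which were low in Cre-positive sham hearts and rose in both genotypes. Cthrc1 (Entrez 68588, mm10 chromosome 15, 39076932 to 39087121) encodes a secreted protein of activated fibroblasts. It had 4.80, 2.80 and 5.91 CPM after sham surgery and 133, 118 and 146 CPM after MI in hearts without Cre, against 0.161, 0 and 0.413 CPM and then 93.9, 116 and 131 CPM in hearts with it. The MI libraries of the genotypes overlapped and the sham libraries did not. Cthrc1 rose by 4.87 on the log2 scale in Cre-negative hearts (adjusted p = 1.13e-07) and by 9.21 in Cre-positive hearts (adjusted p = 5.33e-08). The difference was 4.34 ± 0.58 (SE, 95% interval 3.08 to 5.59, adjusted p = 0.0777). Only 6 reads over 3 libraries stand behind its Cre-positive sham level. With limma on log2(FPKM + 1), a scale that compresses low values, the difference was 1.69 (adjusted p = 0.414), and over all alternatives it ran from 1.69 to 5.35. It was 3.77 when Cre-positive sham replicate 2 was left out.

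Tnc (Entrez 21923, mm10 chromosome 4, 63959785 to 64047015) encodes tenascin C, a matrix glycoprotein of healing wounds. Its levels were 8.75, 8.29 and 12.7 CPM after sham surgery and 407, 313 and 401 CPM after MI in hearts without Cre, against 1.53, 0.458 and 1.14 CPM and then 220, 284 and 320 CPM in hearts with it. Again the sham libraries of the genotypes did not overlap, while Cre-positive MI replicate 3 lay above Cre-negative MI replicate 2. The rise was 5.24 in Cre-negative and 8.01 in Cre-positive hearts, and the difference was 2.78 ± 0.39 (SE, 95% interval 1.93 to 3.62, adjusted p = 0.0777). It was 2.41 without Cre-positive sham replicate 2 and 0.50 with limma on log2(FPKM + 1).

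Sprr1a (Entrez 20753, mm10 chromosome 3, 92483954 to 92485881), a small proline-rich protein gene known to be induced in stressed heart muscle, showed the same shape. It had 8.19, 5.59 and 3.75 CPM after sham surgery and 322, 197 and 340 CPM after MI in hearts without Cre, against 0.563, 0.0916 and 0.516 CPM and then 178, 248 and 228 CPM in hearts with it. The difference of responses was 3.47 ± 0.58 (SE, 95% interval 2.21 to 4.73, adjusted p = 0.264), and 13 reads stand behind the Cre-positive sham level. Leaving out 1 library at a time moved the adjusted p of Sprr1a between 0.177 and 0.443.

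Postn (Entrez 50706, mm10 chromosome 3, 54359267 to 54391041) carries the recombinase at 1 allele in Cre-positive mice, so its level also reflects that changed allele. It had 111, 86.8 and 62.7 CPM after sham surgery and 1590, 1528 and 1729 CPM after MI in hearts without Cre, against 10.2, 3.76 and 11.5 CPM and then 603, 628 and 674 CPM in hearts with it. Here the genotypes did not overlap after either surgery. Postn rose by 4.22 in Cre-negative and by 6.23 in Cre-positive hearts, with a difference of 2.01 ± 0.41 (SE, 95% interval 1.12 to 2.90, adjusted p = 0.496). The difference was 1.65 (adjusted p = 0.0758 in edgeR) when Cre-positive sham replicate 2 was left out.

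Spp1, which encodes the secreted phosphoprotein osteopontin, had 3.95, 2.90 and 4.63 CPM after sham surgery and 981, 854 and 879 CPM after MI in hearts without Cre, against 0.402, 0.550 and 1.03 CPM and then 412, 452 and 657 CPM in hearts with it. Its difference was 1.73 ± 0.41 (SE, adjusted p = 0.496). Aspn, the gene of the small proteoglycan asporin, had 34.0, 36.8 and 28.4 CPM after sham surgery without Cre and 12.6, 16.6 and 16.0 CPM with it. After MI it reached 177, 169 and 220 CPM without Cre and 142, 145 and 164 CPM with it, and its difference was 0.81 ± 0.20 (SE, adjusted p = 0.497). In both genes the genotypes did not overlap after sham surgery or after MI. In whole tissue, fewer cells of a type and less RNA per cell cannot be told apart.

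On the scale of CPM the order of the genotypes turned round for these genes. Cthrc1 gained 128 CPM in Cre-negative and 113 CPM in Cre-positive hearts, Tnc 364 and 274 CPM, and Sprr1a 281 and 218 CPM. Postn gained 1529 CPM in Cre-negative and 627 CPM in Cre-positive hearts, a difference of -902 CPM, and Spp1 gained 901 and 506 CPM. Of the 1116 genes with an unadjusted p under 0.05, 27 (2.42%) had opposite signs on the scales, and all 27 were higher on log2 and lower in CPM. Among all tested genes 1247 (9.12%) had opposite signs. Without Cre-positive sham replicate 2 on the CPM side the number among the 1116 was 28. Between the genotypes, Cthrc1 differed by -4.56 (log2) after sham surgery and by -0.22 after MI, and Tnc by -3.22 and -0.44. Genotype was called in sham hearts for 7 genes, all lower in Cre-positive hearts (0.0512% of those tested), and they are Bche, Spp1, Sprr1a, Tnc, Postn, Aspn and Cthrc1. Between the genotypes after MI, 0 genes were called higher and 0 lower (0.0% each) by edgeR, while DESeq2 called 177 and limma on log2(FPKM + 1) called 42.

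**Figure D2:**
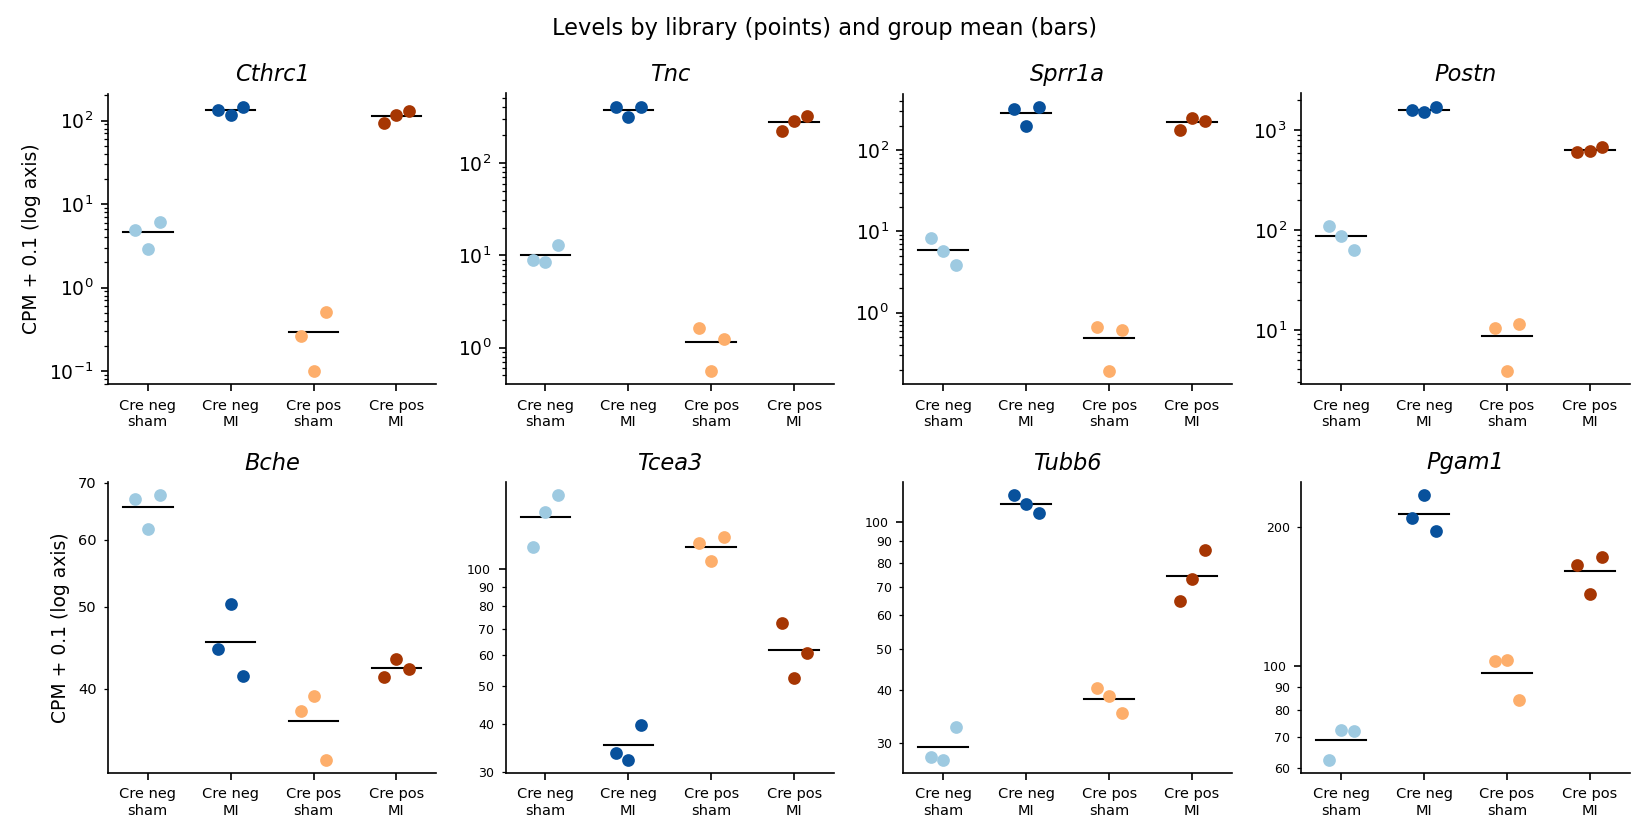
Levels of 8 genes in each library as CPM + 0.1 on log axes, with 3 libraries (points) and the group mean (bar) in each of 4 groups. The Cre-positive sham points of Cthrc1, Tnc, Sprr1a and Postn lie below all other groups, the MI points of Cthrc1, Tnc and Sprr1a overlap between genotypes, and Tubb6 and Pgam1 have higher Cre-positive points after sham surgery and lower ones after MI.

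The start regions of 4 of the genes that share this sham pattern are shown because TEAD factors, through which YAP acts, bind DNA directly. RefSeq's table (GRCm38.p6) held windows for 6 of the 7 genes, and the 250 bases before the outermost listed start are printed for 4 of them, 5′ to 3′ on the gene's strand. Capitals mark matches to TGANTCA (the AP-1 motif, either strand) and TATAAA (gene strand only); GGAATG, the TEAD motif, was searched on either strand. The windows are chr3:54359017-54359266 (+) for Postn, chr4:64047016-64047265 (-) for Tnc, chr3:92485882-92486131 (-) for Sprr1a and chr5:104434861-104435110 (+) for Spp1.
Postn: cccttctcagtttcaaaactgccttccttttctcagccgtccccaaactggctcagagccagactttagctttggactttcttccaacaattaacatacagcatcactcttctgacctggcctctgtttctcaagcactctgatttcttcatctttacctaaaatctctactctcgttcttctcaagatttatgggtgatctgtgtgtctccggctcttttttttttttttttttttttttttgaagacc
Tnc: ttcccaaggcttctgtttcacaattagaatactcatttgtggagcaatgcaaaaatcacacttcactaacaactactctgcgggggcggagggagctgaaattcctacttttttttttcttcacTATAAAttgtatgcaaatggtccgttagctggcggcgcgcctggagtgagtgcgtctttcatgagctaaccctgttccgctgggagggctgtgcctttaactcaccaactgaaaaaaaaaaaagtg
Sprr1a: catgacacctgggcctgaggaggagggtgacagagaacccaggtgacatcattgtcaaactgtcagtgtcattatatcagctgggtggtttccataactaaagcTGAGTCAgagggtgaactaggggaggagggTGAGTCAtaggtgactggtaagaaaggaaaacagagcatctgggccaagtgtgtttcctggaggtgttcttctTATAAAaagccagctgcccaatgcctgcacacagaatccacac
Spp1: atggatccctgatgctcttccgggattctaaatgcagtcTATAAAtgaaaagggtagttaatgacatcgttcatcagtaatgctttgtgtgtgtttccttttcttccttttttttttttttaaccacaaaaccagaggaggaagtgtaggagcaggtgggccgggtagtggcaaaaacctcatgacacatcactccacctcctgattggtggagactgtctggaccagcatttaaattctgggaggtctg
The AP-1 motif matched at 2 places in Sprr1a, 146 and 116 bases before the start, and at 0 places in the other 3 windows. TATAAA matched at 1 place each in Tnc, Sprr1a and Spp1, in Sprr1a 43 bases before the start, and at 0 places in Postn. The TEAD motif matched at 0 places in these 4 windows. Matches in Bche and Aspn, which also had windows, were not listed, so these 4 do not stand for all 7 genes. Among all 32851 windows of 250 bases in the table, 6.75% held the AP-1 motif, 7.59% TATAAA and 12.6% the TEAD motif. A match is a string of letters and no measured site, and a window without one says nothing about the factor.

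Other higher genes fell in Cre-negative hearts and had a smaller or no called fall in Cre-positive hearts. Tcea3, a transcription elongation factor gene, had 114, 140 and 155 CPM after sham surgery and 33.5, 32.2 and 39.5 CPM after MI in hearts without Cre, against 117, 105 and 120 CPM and then 72.3, 52.2 and 60.5 CPM in hearts with it. The sham libraries overlapped and the MI libraries did not, the reverse of Cthrc1, Tnc and Sprr1a. Tcea3 fell by 1.96 in Cre-negative hearts and by 0.88 in Cre-positive hearts, and the difference was 1.07 ± 0.20 (SE, 95% interval 0.63 to 1.51, adjusted p = 0.361). Ghr, the growth hormone receptor gene, had 190, 201 and 204 CPM after sham surgery and 112, 106 and 124 CPM after MI in hearts without Cre, against 148, 157 and 181 CPM and then 146, 146 and 143 CPM in hearts with it. It fell by 0.80 in Cre-negative hearts, its change in Cre-positive hearts was -0.16 (adjusted p = 0.190), and the difference was 0.64 ± 0.13 (SE, adjusted p = 0.496). AW549877 gave a similar pattern, with a fall of 0.62 in Cre-negative hearts, a change of -0.0037 in Cre-positive hearts (adjusted p = 0.978) and a difference of 0.62 ± 0.13.

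Bche, the butyrylcholinesterase gene, had 67.0, 61.7 and 67.6 CPM after sham surgery and 44.5, 50.3 and 41.3 CPM after MI in hearts without Cre, against 37.6, 39.1 and 32.9 CPM and then 41.3, 43.3 and 42.1 CPM in hearts with it. The Cre-negative sham libraries lay above, and the Cre-positive sham libraries below, both MI groups, which overlapped. Bche fell by 0.53 in Cre-negative hearts (adjusted p = 0.000715) and its change in Cre-positive hearts was 0.21 (adjusted p = 0.110), which gave a difference of 0.73 ± 0.14 (SE, adjusted p = 0.361). Iigp1, an interferon-inducible GTPase gene, had 53.3, 79.9 and 55.2 CPM after sham surgery and 52.0, 43.3 and 55.6 CPM after MI in hearts without Cre, against 27.7, 27.6 and 37.7 CPM and then 57.8, 75.4 and 50.8 CPM in hearts with it. It rose by 0.99 in Cre-positive hearts (adjusted p = 0.00149), its change in Cre-negative hearts was -0.32 (adjusted p = 0.182), and the difference was 1.31 ± 0.28. Cd300ld5, a member of a family of immune receptors with similar sequences, rests on 5 reads in Cre-positive sham hearts. Its difference of 4.45 ± 0.86 is uncertain, since the counting could divide reads between family members.

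Of the 10 lower genes with the smallest p, 9 rose in both genotypes, and each of these had the smaller estimated rise in Cre-positive hearts. Tubb6, a beta-tubulin gene, had 27.7, 27.3 and 32.5 CPM after sham surgery and 115, 110 and 105 CPM after MI in hearts without Cre, against 40.4, 38.5 and 35.2 CPM and then 64.7, 73.1 and 85.4 CPM in hearts with it. The Cre-positive libraries were higher than the Cre-negative ones after sham surgery and lower after MI, without overlap. The rise was 1.92 in Cre-negative and 0.97 in Cre-positive hearts, and the difference was -0.95 ± 0.16 (SE, 95% interval -1.31 to -0.60, adjusted p = 0.264). Tubb2a, another beta-tubulin gene, had 24.8, 31.1 and 26.7 CPM after sham surgery and 135, 133 and 128 CPM after MI in hearts without Cre, against 43.8, 30.7 and 27.2 CPM and then 82.7, 80.1 and 96.8 CPM in hearts with it. Its sham libraries overlapped and its MI libraries did not, and the difference was -0.91 ± 0.22 (SE, adjusted p = 0.497). Tubb2a has a near-identical neighbour in its family, so its counts are less certain.

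Pgam1, the phosphoglycerate mutase gene of glycolysis, had 62.5, 72.4 and 72.2 CPM after sham surgery and 209, 235 and 196 CPM after MI in hearts without Cre, against 102, 103 and 84.4 CPM and then 166, 143 and 172 CPM in hearts with it. Its pattern matched that of Tubb6, with a crossing of the genotypes between surgeries and no overlap. The difference was -0.89 ± 0.16 (SE, 95% interval -1.25 to -0.54, adjusted p = 0.361). Il4ra, the receptor chain for interleukin-4, had 21.1, 19.6 and 16.9 CPM after sham surgery and 113, 111 and 85.7 CPM after MI in hearts without Cre, against 23.2, 19.9 and 19.0 CPM and then 64.0, 63.7 and 65.1 CPM in hearts with it. Its genotypes overlapped after sham surgery and not after MI, and the difference was -0.79 ± 0.18.

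Rara, the retinoic acid receptor alpha gene, rose by 0.77 in Cre-negative and by 0.22 in Cre-positive hearts. Lrrc59, a gene of the endoplasmic reticulum membrane, rose by 1.31 and 0.74, and Srm, the spermidine synthase gene, by 1.36 and 0.60. Elovl1, a fatty acid elongase gene, rose by 1.51 and 0.76, and Tmem37, a membrane protein gene, by 2.43 and 1.34. Rbm14, an RNA-binding protein gene, rose by 0.64 in Cre-negative hearts, and its change of -0.17 in Cre-positive hearts was not called (adjusted p = 0.313). The differences of these 6 genes ran from -1.10 ± 0.26 (SE) for Tmem37 to -0.55 ± 0.12 for Rara, with adjusted p-values from 0.496 to 0.497.

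**Figure D3:**
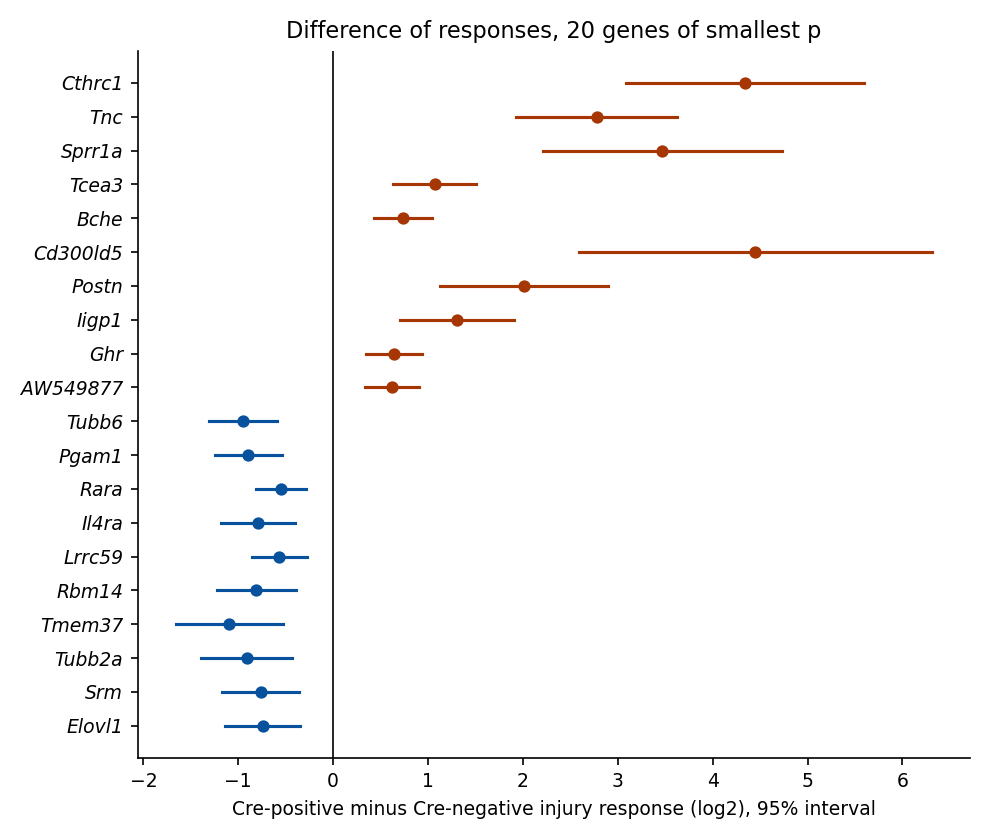
Difference between the injury responses of Cre-positive and Cre-negative hearts (log2, points) with its 95% interval (lines) for the 20 genes of smallest p, 10 in each direction. The intervals, which are not adjusted for the number of genes, lie on 1 side of 0 because these genes were picked by p, and the widest belong to Cthrc1, Sprr1a and Cd300ld5, which have few reads in Cre-positive sham hearts.

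Gene lists are described by how many members were higher or lower at an unadjusted p under 0.05 and by their median difference, beside 4.26% higher, 3.9% lower and a median of 0.01 over all tested genes. Without Cre-positive sham replicate 2 the counts over all genes were 956 higher and 791 lower, against 583 and 533 with it. The median was then 0.008. Injury raised 29.9% and lowered 24.4% of all tested genes in Cre-negative hearts, and 25.7% and 19.5% in Cre-positive hearts. No member of any of the 39 lists was called at an adjusted p under 0.05. Some lists share members, and members of a list are not independent of each other.

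Most genes of oxidative phosphorylation fell in both genotypes, and the estimated fall was the smaller one in Cre-positive hearts. All 57 tested oxidative phosphorylation genes had a difference above 0 (56 with RLE scaling or total counts), with a median of 0.29, and 14 of 57 were higher and 0 lower. Injury lowered 57 of them in Cre-negative hearts, with a median change of -0.91, and 55 in Cre-positive hearts, with a median of -0.63. The 95% interval lay within 2-fold for 56 of 57. Their summed level was 54300, 49770 and 53860 CPM after sham surgery and 24220, 27640 and 28180 CPM after MI in hearts without Cre, against 56960, 47270 and 55650 CPM and then 33720, 33730 and 31810 CPM in hearts with it. The sham groups overlapped, and the Cre-positive MI libraries lay above the Cre-negative ones. The median was 0.18, with 55 above 0 and 10 higher, once Cre-positive sham replicate 2 was left out. Cox7a1, a subunit of cytochrome c oxidase in muscle, fell by 1.54 in Cre-negative and by 0.82 in Cre-positive hearts, with a difference of 0.72 ± 0.25. Ndufs1, a subunit of complex I, gave 0.48 ± 0.16, Ndufb9 of the same complex 0.35 ± 0.12 and Uqcrb of complex III 0.52 ± 0.18.

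The 26 genes of pyruvate use and the TCA cycle gave a similar result, with all 26 above 0, a median of 0.31, and 9 higher and 0 lower (0.27, with 5 higher, without Cre-positive sham replicate 2). They include Sucla2 and Suclg2, subunits of succinyl-CoA ligase (0.56 ± 0.21 and 0.40 ± 0.14), Pdha1 of pyruvate dehydrogenase (0.41 ± 0.16) and Dld, a subunit that several dehydrogenase complexes share (0.54 ± 0.22). Of 37 genes of fatty acid uptake and oxidation, 24 were above 0 with a median of 0.18, and 1 was higher, namely Cpt2, the inner-membrane carnitine palmitoyltransferase (0.53 ± 0.17). This list depended on 1 library. Cre-positive sham replicate 2 had a summed level of 51740 CPM, against 26540 and 30730 CPM in the other Cre-positive sham libraries, and without it the median was 0.48 and 23 members were higher. Among 28 genes of glycolysis and sugar transport the median was 0.05, with 2 higher and 2 lower, and -0.09 with 1 higher and 4 lower without that library. The higher ones were Ldhb, the heart form of lactate dehydrogenase (0.39 ± 0.16), and Pfkfb1 (1.25 ± 0.49), and the lower ones Pgam1 and the enolase gene Eno1 (-0.44 ± 0.19).

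Heart muscle genes gave a median of 0.36 over 28 members, with 26 above 0 and 4 higher. Their summed level was 79160, 94010 and 105400 CPM after MI without Cre and 110700, 127700 and 121200 CPM with it, which do not overlap. After sham surgery it was 195900, 173300 and 193900 CPM without Cre and 201700, 132200 and 207600 CPM with it. The 4 higher genes were Nebl, a thin filament protein (0.65 ± 0.21), Pln, the inhibitor of the calcium pump of the sarcoplasmic reticulum (0.61 ± 0.21), Cacna1c, the L-type calcium channel (0.51 ± 0.18), and Tcap, a protein of the Z disc (0.89 ± 0.37). Of 29 ion channel and conduction genes, 8 were higher and 0 lower, with a median of 0.37. Injury lowered 24 of the 29 in Cre-negative and 13 in Cre-positive hearts. The potassium channel subunit Kcnv2 fell by 2.74 and 0.97, giving a difference of 1.76 ± 0.50, and Kcnd2, a channel of the early repolarising current, gave 1.02 ± 0.30 with Kcnd3 at 0.55 ± 0.17. Kcnj3, an inward rectifier gene, gave 0.74 ± 0.24. Leaving out Cre-positive sham replicate 2 gave medians of 0.26 for heart muscle genes (7 higher) and 0.19 for ion channels (6 higher). The summed level of muscle genes was thus the higher one in Cre-positive MI hearts beside the results on energy and ion channel genes, and its part in them was not tested.

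**Figure D4:**
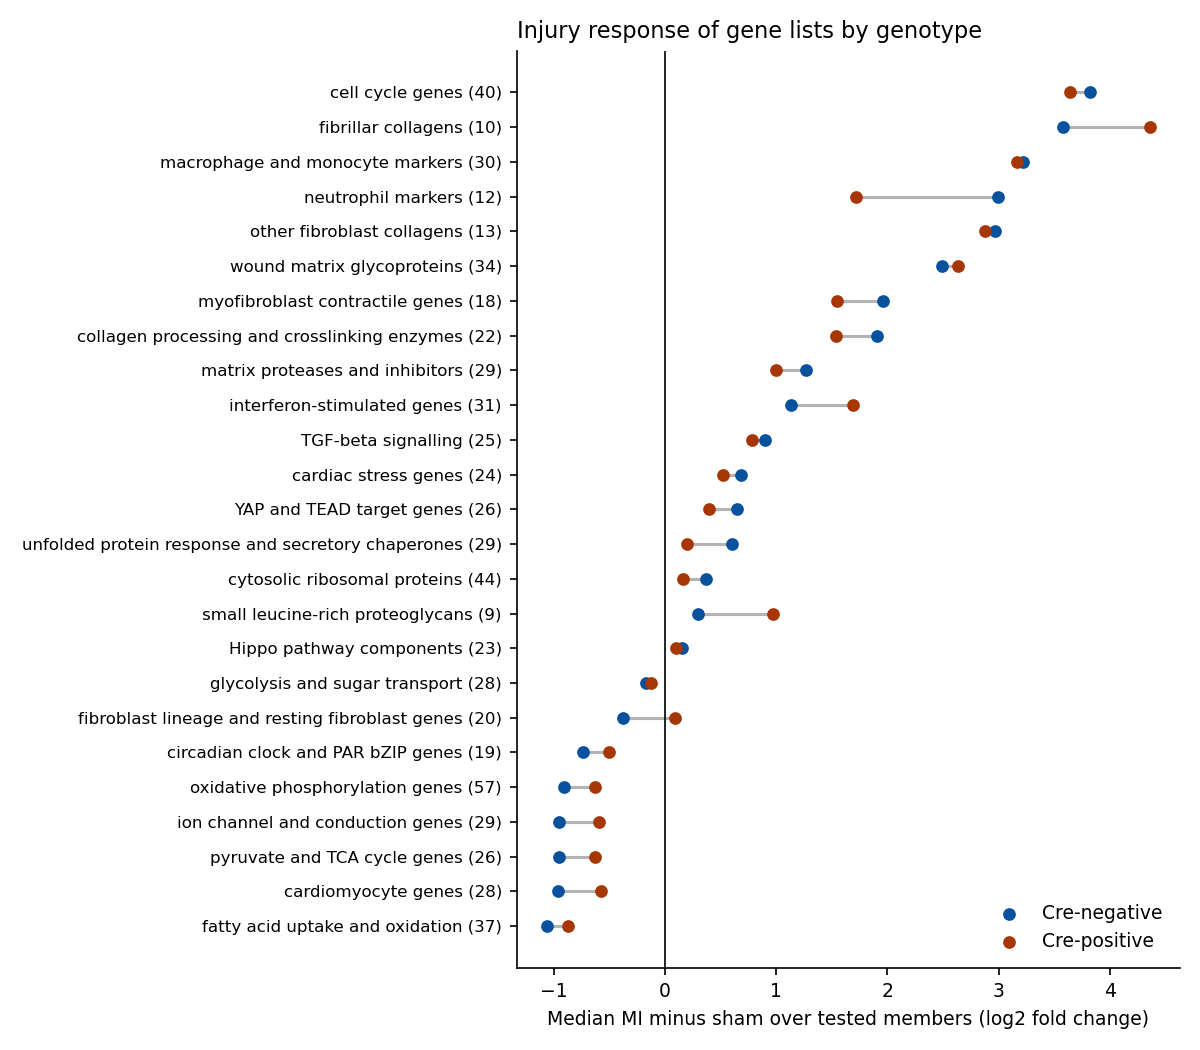
Median log2 change from sham surgery to MI over the tested members of 25 gene lists (number of members in brackets) in Cre-negative and Cre-positive hearts. Metabolic, cardiomyocyte and ion channel lists lie below 0 with the Cre-positive median nearer to 0, secretory, ribosomal and contractile lists lie above 0 with the Cre-positive median nearer to 0, and fibrillar collagens and proteoglycans have the larger median in Cre-positive hearts.

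Most matrix genes rose in both genotypes, and the median difference of the fibrillar collagens moved with 1 sham library. Of 10 tested fibrillar collagen genes, 9 rose in Cre-negative and 9 in Cre-positive hearts, and the median difference was 0.70, with 1 higher and 0 lower. The summed level of all 11 listed genes was 1119, 1053 and 1520 CPM after sham surgery and 16860, 15060 and 16690 CPM after MI in hearts without Cre, against 787, 154 and 502 CPM and then 11350, 12640 and 12560 CPM in hearts with it. Cre-positive libraries were the lower ones after both surgeries, without overlap. Without Cre-positive sham replicate 2, the library at 154 CPM, the median was 0.28. Col5a2 was the higher member, at 0.65 ± 0.27, and 0.41 without that library. Col1a1, the main chain of type I collagen, gave 1.10 ± 0.65 with a 95% interval of -0.32 to 2.52, and Col1a2 gave 0.76 ± 0.44. Without the same library they gave 0.62 and 0.38. Col11a1, with 3 reads in the Cre-positive sham libraries, gave an uncertain 1.62 ± 0.78 on counts and -0.52 with limma on log2(FPKM + 1). The 13 other fibroblast collagens had a median of 0.19, with 1 higher and 0 lower, but 0.0028 with 0 higher and 1 lower when that library was left out. Col12a1, their higher member, gave 0.73 ± 0.29 on counts and -0.44 with limma.

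The 34 wound matrix glycoprotein genes had a median of 0.19, with 6 higher and 2 lower, and 29 rose in each genotype. Cthrc1, Tnc, Postn and Spp1, given above, are among the 6. Of 9 small leucine-rich proteoglycan genes 2 were higher, Aspn and Podn (0.56 ± 0.18), and the median was 0.23 (0.38, with 3 higher, without Cre-positive sham replicate 2). The collagen organisers Ogn and Lum gave 0.67 ± 0.35 and 0.71 ± 0.51, with intervals that include 0, and 0.44 and 0.27 without it. Enzymes that process and crosslink collagen went the other way in sign. Their 22 genes had a median of -0.10, with 0 higher and 2 lower, the prolyl hydroxylase subunit P4hb (-0.50 ± 0.17) and the lysyl hydroxylase Plod3 (-0.39 ± 0.16). That median was -0.26, with 1 higher and 8 lower, when Cre-positive sham replicate 2 was left out. Of 29 matrix proteases and inhibitors 2 were higher, Timp1 (1.57 ± 0.55) and Adamts5 (0.71 ± 0.20), and 2 lower, the neutrophil proteases Mmp8 (-2.67 ± 1.13) and Mmp9 (-1.65 ± 0.68). Timp1 had sham means of 8.23 CPM without Cre and 1.85 CPM with it. In CPM it gained 167 in Cre-negative and 116 in Cre-positive hearts. The median of these 29 was 0.04, and 0.02 with 2 higher and 1 lower without that library.

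Contractile genes of myofibroblasts had a difference below 0 at 15 of 18 members, with a median of -0.25, 0 higher and 5 lower. Flna, which encodes an actin crosslinker, rose by 2.17 in Cre-negative and by 1.56 in Cre-positive hearts (-0.60 ± 0.17). Cnn2, Actn1 and Myh9, genes of calponin, alpha-actinin and non-muscle myosin, gave -0.57 ± 0.19, -0.37 ± 0.15 and -0.48 ± 0.20. The median was -0.34, with 7 lower, when Cre-positive sham replicate 2 was left out. Genes of resting fibroblasts and the fibroblast lineage had 19 of 20 differences above 0 and a median of 0.35, with 3 higher and 0 lower. Scara5 fell by 1.45 and 0.56 (0.89 ± 0.27), and Gsn, the gelsolin gene, fell by 1.29 and 0.74 (0.55 ± 0.25). Ccl11, the eotaxin gene, gave 1.11 ± 0.41. For this list the median without that library was 0.21, with 4 higher.

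Known targets of YAP and TEAD showed no common direction. Of 26 tested, 2 were higher and 3 lower, with a median of -0.10, which was 0.10, with 4 higher and 3 lower, without Cre-positive sham replicate 2. The lower ones include Ctgf, a matricellular growth factor gene, which rose by 1.65 in Cre-negative hearts and whose change of 0.69 in Cre-positive hearts was not called (adjusted p = 0.0819), with a difference of -0.96 ± 0.43, and -0.43 without that library. Tnfrsf12a, a receptor gene, gave -1.54 ± 0.57, and -0.60 without it. The higher ones were Crim1 (0.32 ± 0.11) and Gadd45a (0.81 ± 0.34, and 0.51 without it). The summed level of the list was 5983 CPM in Cre-positive sham replicate 2, while the other 5 sham hearts had 1949 to 2949 CPM. Of 23 Hippo pathway genes 1 was lower, the kinase gene Stk4 (-0.36 ± 0.11), the median was -0.04, and the 95% interval lay within 2-fold for 20. Leaving out that library gave a median of 0.01 with 2 lower. Among 25 TGF-beta signalling genes, 1 was higher, the latent TGF-beta binding protein gene Ltbp2 (1.23 ± 0.41), and 1 lower, the ligand gene Tgfb1 (-0.54 ± 0.22). The median was -0.11, and -0.0019 with 1 higher and 2 lower without that library. Ltbp2 itself was at 0.83 without it and at 0.03 at the lowest over all alternatives. In CPM, Ltbp2 gained 158 in Cre-negative and 113 in Cre-positive hearts.

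Genes of protein folding and secretion had differences below 0 for the most part. The list of the unfolded protein response and secretory chaperones had 26 of 29 differences below 0 and a median of -0.39, with 1 higher and 8 lower. Injury raised 18 in Cre-negative and 11 in Cre-positive hearts. Pdia6, a disulfide isomerase gene, gave -0.51 ± 0.15, the transcription factor gene Xbp1 -0.57 ± 0.17 and Kdelr2, which returns proteins to the endoplasmic reticulum, -0.46 ± 0.15. The higher member was Herpud1, a gene of protein degradation at the endoplasmic reticulum, which fell by 1.40 in Cre-negative and by 0.72 in Cre-positive hearts (0.68 ± 0.23). Without Cre-positive sham replicate 2 the median was -0.25, with 2 higher and 9 lower. All 44 cytosolic ribosomal protein genes had a difference below 0 (42 without that library), with a median of -0.22, 0 higher and 6 lower, and all 44 intervals lay within 2-fold. Injury raised 34 of them in Cre-negative and 8 in Cre-positive hearts, beside 29.9% and 25.7% of all tested genes. Their median Cre-positive minus Cre-negative value (log2) was 0.16 after sham surgery and -0.06 after MI. Rps20 gave a difference of -0.46 ± 0.17, Rps19 -0.40 ± 0.15 and Rpl3 -0.39 ± 0.16. Ribosomal protein genes have many pseudogenes, which can take part of their reads.

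**Figure D5:**
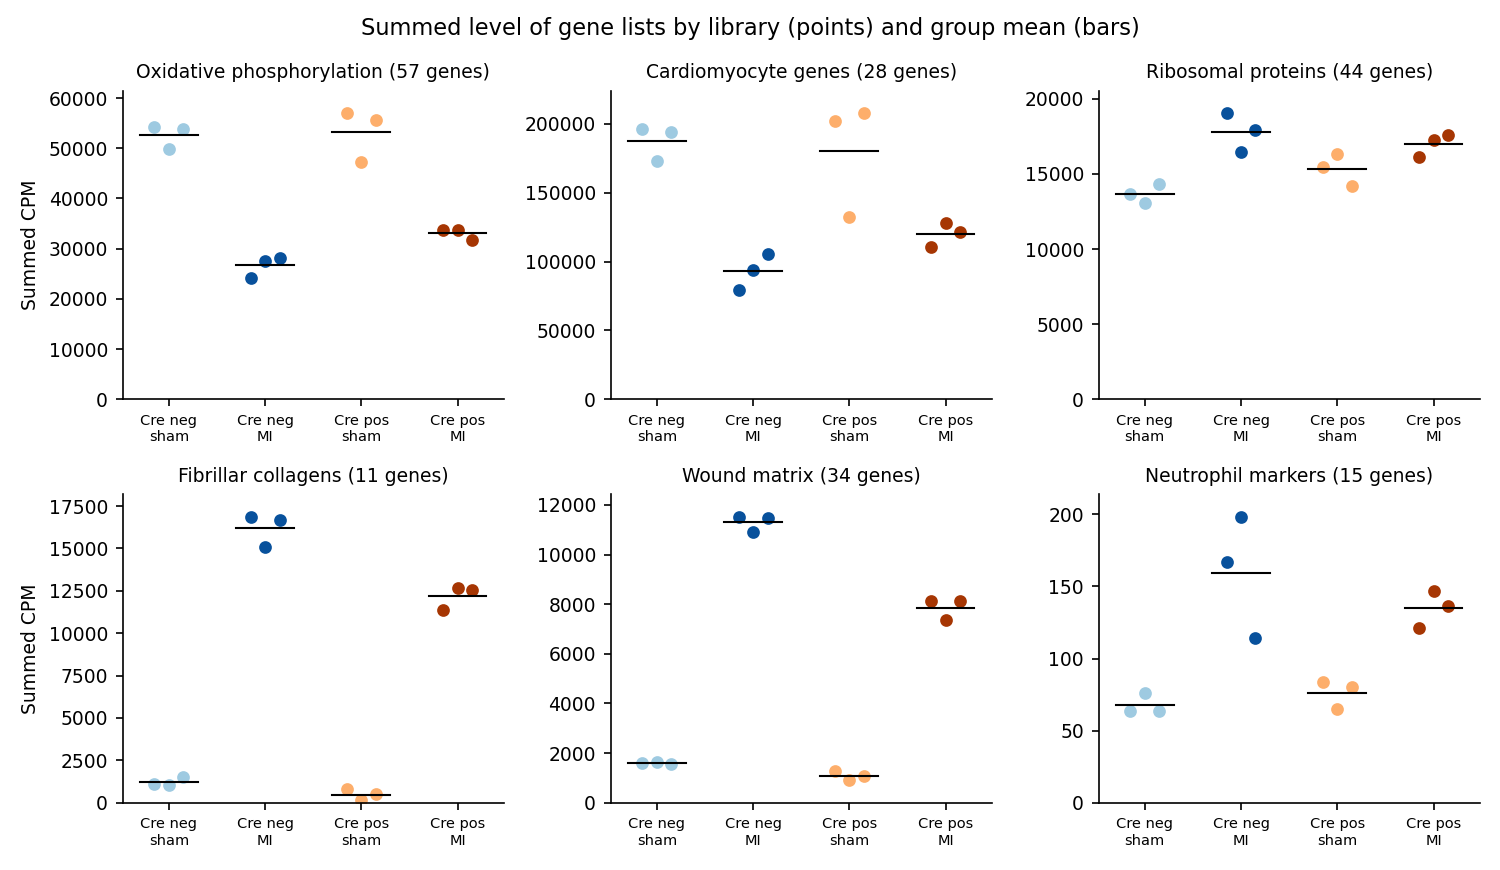
Summed level (CPM, linear axes from 0) of 6 gene lists in each library (points), with the group mean (bar), for 3 libraries in each of 4 groups. Oxidative phosphorylation and cardiomyocyte sums lie higher in Cre-positive than in Cre-negative hearts after MI, the fibrillar collagen and wound matrix sums lie lower in Cre-positive hearts after both surgeries, and ribosomal and neutrophil sums overlap after MI.

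Among immune lists, neutrophil markers had the lowest median, -1.10 over 12 tested genes, with 0 higher and 4 lower, and no interval within 2-fold. Leaving out Cre-positive sham replicate 2 gave 1 higher and 2 lower. These genes were read at low levels, and the summed level of all 15 listed genes was 167, 198 and 114 CPM after MI without Cre and 121, 147 and 137 CPM with it, which overlap. The lower members were Csf3r, the receptor for granulocyte colony-stimulating factor (-1.06 ± 0.35), Retnlg (-3.35 ± 1.44), Mmp8 and Mmp9. Macrophage and monocyte markers had a median of 0.02 over 30 genes, with 2 higher and 1 lower, and -0.31 with 1 higher and 6 lower without Cre-positive sham replicate 2. Their summed level after MI was 4549, 4075 and 3672 CPM without Cre and 2998, 2859 and 3227 CPM with it, which do not overlap. After sham surgery it was 554, 660 and 629 CPM without Cre. With Cre it was 657, 219 and 496 CPM, the 219 CPM in Cre-positive sham replicate 2. Ccr2, the chemokine receptor of recruited monocytes, gave 1.35 ± 0.45, but 0.93 without that library and 0.04 at the lowest over all alternatives. In CPM, Ccr2 gained 49.2 in Cre-negative and 32.2 in Cre-positive hearts. The lectin gene Chil3 gave -2.20 ± 0.88, and the macrophage gene Cd5l was the other higher member beside Ccr2. Arg1, with 2 reads in the Cre-positive sham libraries, gave an uncertain 2.86 ± 1.46 on counts and -0.44 with limma on log2(FPKM + 1). Of 31 interferon-stimulated genes 28 were above 0, with a median of 0.43 and 1 higher, Gbp3 (1.04 ± 0.46), but without that sham library the median was 0.06 and Gbp3 was at 0.69.

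Cell cycle genes rose strongly in both genotypes, 38 of 40 in Cre-negative and 40 of 40 in Cre-positive hearts, with median changes of 3.82 and 3.64. Their median difference was 0.07, with 2 higher and 3 lower (5 lower without Cre-positive sham replicate 2). The lower ones were the replication genes Pcna (-0.50 ± 0.16), Mcm3 (-0.62 ± 0.23) and Mcm2 (-0.61 ± 0.23), and Cenpf of the kinetochore was among the higher ones (0.97 ± 0.29). With limma on log2(FPKM + 1) the median of the list was -0.36. Its summed level after sham surgery was 186, 197 and 193 CPM without Cre and 170, 181 and 177 CPM with it. After MI it was 908, 893 and 898 CPM without Cre and 608, 633 and 750 CPM with it. Cre-positive libraries were thus the lower ones after both surgeries, without overlap. Clock genes and their PAR bZIP outputs had a median of 0.19 over 19 genes, with 4 higher and 0 lower. Hlf, a PAR bZIP factor, went from a mean of 90.3 to 26.8 CPM without Cre and from 71.1 to 42.6 CPM with it, with a difference of 1.01 ± 0.23. Per3, Nr1d2 and Tef gave 0.75 ± 0.27, 0.57 ± 0.19 and 0.58 ± 0.21. Without Cre-positive sham replicate 2 the median was 0.38, with 6 higher. Of 24 cardiac stress genes 1 was higher, Sprr1a, and 4 lower, among them the filamin gene Flnc (-0.49 ± 0.14), the heat shock gene Hspb1 (-0.62 ± 0.20) and the uridine kinase gene Uck2 (-0.61 ± 0.21). The median was -0.18, and 0.0077 with 4 higher and 4 lower when that library was left out. The summed level of all 25 listed genes was 59660 CPM in that library, against 24350 to 31130 CPM in the other 5 sham hearts.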

How the data were processed

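RNA of 12 mouse left ventricles was sequenced, 3 in each of 4 groups. Per the submitters' processing notes, Bowtie2 2.2.5, RSEM 1.2.12 and mm10 were used. Per the file headers, the authors' deposited files give RSEM expected counts per gene and FPKM (fragments scaled by transcript length and by library size). Genes that a library does not list were set to 0, and expected counts were rounded, 74.0% of values above 0 being whole within 0.005. Of 17471 genes, 17436 matched RefSeq GRCm38.p6 by identifier. Libraries held 10257675 to 15176286 counts, and 3 counts equal 0.198 to 0.292 CPM, so low genes carry counting error. No libraries held identical counts.

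In R 4.3.3 with edgeR 4.0.16, filterByExpr (minimum count 10) kept 13678 genes and removed 3793. A quasi-likelihood fit with TMM scaling and 1 mean per group (8 residual degrees of freedom) tested the difference of responses and the pairwise contrasts, two-sided, with Benjamini-Hochberg adjustment over all genes in each. Errors of differences are standard errors, and 95% intervals use them and are not adjusted. CPM are TMM-scaled. The fit was also run on counts simulated from its own estimates of spread, as a check of the code and not of its power on these data. Alternatives were RLE scaling, total counts, no filter, DESeq2 1.42.0, limma 3.58.1 on log2(FPKM + 1), robust dispersion, a replicate block, a Y-linked term, leaving out each library, and CPM differences.

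The comparison and the 39 gene lists were chosen with earlier results of these data known. Text names the 10 genes of smallest p in each direction with mean log2 CPM 1 or above and no predicted name, Yap1, Postn, and up to 4 members of smallest p from each of 25 lists. The genes called in sham hearts and 1 called in opposite directions were added after their values were seen. A few genes that meet these rules are not reported here. The authors' joined FPKM table and comparison tables were not used here.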

Additional observations from a re-analysis of the deposited data

How the results depend on the processing

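The 0 calls in each direction stayed at 0 under RLE scaling, total counts, robust dispersion, the Y-linked term and limma on log2(FPKM + 1). Without a filter on low counts 2 genes were called higher (Cthrc1 and Tnc), and DESeq2 called 21 higher and 13 lower. Leaving out 1 library at a time gave 0 to 1 higher calls (1, Cthrc1, without Cre-negative sham replicate 2) and 0 to 0 lower calls. Over the same 12 settings, genes with an unadjusted p under 0.05 ranged from 384 to 956 higher and from 325 to 838 lower. The lowest counts came without Cre-positive MI replicate 2, the highest without Cre-positive sham replicate 2 (higher) and replicate 3 (lower). The signs of Col11a1, Col12a1 and Arg1 reversed with limma on log2(FPKM + 1), at -0.52, -0.44 and -0.44; the cause was not tested. No other named gene reversed under any alternative run. Against 0 and 7 main calls, the genotype contrasts after MI and after sham had 177 and 39 with DESeq2. Leaving out single libraries gave 0 to 3 after MI and 3 to 8 after sham. Among list medians, leaving out Cre-positive sham replicate 1 gave 1.01 for fibrillar collagens, 0.68 for other fibroblast collagens, 0.61 for resting fibroblast genes and 0.39 for macrophage markers. Myofibroblast contractile genes had -0.39 without Cre-positive MI replicate 3, and clock genes 0.07 without Cre-negative sham replicate 1.

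The labels do not say whether replicate numbers pair the samples, and the values did not settle it. Of 18 same-numbered pairs of libraries, 4 had correlated deviations over 0.1 (range -0.15 to 0.29). Pairs with different numbers ranged from -0.31 to 0.22. Of 12 libraries, 8 correlated best with their own number among the 3 numbers. With the replicate block 0 genes were called higher and 0 lower, and 637 and 488 had an unadjusted p under 0.05. Few reads in Cre-positive sham libraries limit the size given for Cthrc1 (6 reads), Sprr1a (13), Spp1 (21), Cd300ld5 (5), Arg1 (2), Col11a1 (3) and Cd5l (3), and few reads in Cre-negative sham libraries those for Mmp8 (4), Cd5l (8), Chil3 (10) and Retnlg (10).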

Other observations

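Marker lists of other cell types gave these values for the difference of responses. Endothelial markers had a median of -0.04 over 18 genes, with 0 higher and 0 lower at an unadjusted p under 0.05. Smooth muscle and pericyte markers had -0.16 over 15 genes, with 1 higher and 0 lower (2 and 1 without Cre-positive sham replicate 2). Epicardial and mesothelial markers had 0.18 over 13 genes and erythrocyte markers -0.08 over 10, both with 0 higher and 0 lower. Lymphocyte and dendritic cell markers had 0.11 over 16 genes with 1 higher, and -0.26 with 1 higher and 1 lower without that library. Resident macrophage markers had 0.12 over 10 genes, with 0 in either direction, and -0.05 with 1 lower without it. Nerve and Schwann cell markers had 0.72 over 9 genes, with 1 higher and 0 lower, and 0.38 without Cre-negative sham replicate 3.

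Fat and atrial markers varied between libraries. Adipoq, the adiponectin gene of fat cells, ranged from 2.12 to 58.7 CPM in Cre-positive MI and from 12.7 to 25.5 CPM in Cre-negative MI libraries, against 0.825 CPM or less in sham libraries. Adipocyte markers had a median difference of 0.81 over 10 genes, with 0 higher and 0 lower. Without Cre-positive sham replicate 2, 3 were higher, and without Cre-positive MI replicate 1 the median was -0.30. Atrial markers had 0.10 over 8 genes, and 0.55 with 4 higher without that sham library.

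Among remaining lists, immediate early genes had a median of -0.21 over 25 genes with 0 higher and 2 lower, and 0.23 with 1 higher and 1 lower without that sham library. Cytokines and chemokines had -0.01 over 27 genes, with 0 in either direction, and -0.32 without it. Acute phase, complement and coagulation genes had 0.32 over 26 genes, with 1 higher, and 0.15 with 4 higher without it. Leaving out Cre-positive MI replicate 1 gave 0.01. Bone and cartilage genes had 0.08 over 17 genes, with 2 higher, and -0.12 without Cre-positive MI replicate 3 or -0.08 without Cre-negative sham replicate 3.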
